A study of Mus musculus with 5 samples.

Results

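Glutathione and antioxidant defence genes were followed in tissue that the labels give as mouse dorsolateral prostate, over 46 genes of the 51912 listed in each library. The 46 were a list of gene names: the glutathione transferases (GSTs), the glutathione peroxidases, the enzymes that make and recycle glutathione, redox enzymes known as targets of the transcription factor NRF2, catalase, the superoxide dismutases, and NRF2 (Nfe2l2) with its inhibitor Keap1. Each symbol matched 1 Ensembl gene. The genes were chosen by name and function with no threshold, but with the control and deletion expected counts and TPM of these libraries already known, so the comparison of their levels between groups is a description and supports nothing. All 5 mice were males aged 7 months that carried the SV40 C3(1) T-antigen+/0 transgene, an oncogene under a promoter active in prostate epithelium, and Ghrflox/flox alleles of the growth hormone receptor gene. All were given tamoxifen at 250 mg/kg a day on 5 days, and tissue was taken 1 month later. The 3 Ghr deletion mice also carried ROSA26Cre-ERT2+/0, a tamoxifen-activated recombinase at a broadly expressed locus, and the labels of the 2 tamoxifen controls list no Cre. Presence of the recombinase and loss of the receptor therefore cannot be told apart.

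Glutathione is a small thiol that cells use to reduce peroxides and to tag reactive compounds for export. GSTs join it to electrophiles, peroxidases spend it on hydrogen peroxide and lipid peroxides, and glutathione reductase restores it with NADPH. NRF2, held low by KEAP1 and released by oxidants and electrophiles, binds antioxidant response elements and raises many of these genes. In male accessory glands the same enzymes are known for guarding epithelium and sperm from oxidation.

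Ghr itself, the targeted gene, read 14.4 and 31.3 CPM in the libraries labelled control and 8.13, 20.9 and 12.1 in those labelled deletion. CPM here are counts scaled to a common library total by TMM factors, which equalise typical genes between libraries. The groups overlapped, with deletion replicate 2 above control replicate 1, and the edgeR log2 fold change was -0.73 (SE 0.515, 95% interval -1.97 to 0.50; adjusted p = 0.995). Gene-level counts include reads from any exons that recombination leaves, and no source used here names the deleted exons, so these values neither bear out nor contradict the labels. The words control and deletion stand for the labels throughout, and every direction below rests on them. Deletion replicate 2 is the library in which most members were highest.

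Libraries held 13812483 to 47656216 expected counts and differed in tissue content. Seminal vesicle markers summed to 725170 and 18573 CPM in control replicates 1 and 2 and to 274355, 341374 and 8853 CPM in deletion replicates 1, 2 and 3. That sum is mostly Svs2, Svs5 and Pate4 in the deletion libraries, and 6 of 10 seminal vesicle markers had every deletion library below both controls (10.2% of all genes did). Of these 6, Svs1 read 78234 and 171 CPM in the controls against 6.204, 0.0626 and 9.63 in deletion libraries. The 10 prostate markers summed to 4494 and 149 against 24.6, 61.3 and 173.4 CPM. Single genes carried that sum: Spink1 in control replicate 1, at 4390 CPM, and Mmp7 in control replicate 2 and deletion replicate 3, at 126 and 159. Spdef was the largest part in deletion replicates 1 and 2, at 15.4 and 31.2 CPM. The prostate marker Pbsn was at 17.6 CPM in control replicate 1 and at 0.0484, 0.140, 0.251 and 0.0557 CPM in the other libraries, in the same order, close to 0 in 4 of 5. Vas deferens markers summed to 45.5 and 941 CPM in the controls against 3519, 3279 and 47.0 CPM in deletion libraries, nearly all of it Akr1b7 where the sum was high. Aqp9 of the same list was, like Akr1b7, low in control replicate 1 and deletion replicate 3, at 0.257 and 0.891 CPM. It read 26.4 CPM in control replicate 2 and 22.3 and 25.6 CPM in deletion replicates 1 and 2. Krt5 was instead low in deletion replicates 1 and 2, at 8.97 and 2.72 CPM against 26.4, 14.04 and 33.2 in the other libraries. Krt14 was below both controls in every deletion library, at 13.99 and 10.36 CPM against 3.54, 0.877 and 3.68. Urothelium markers summed to 80.0 and 25.2 against 47.0, 68.4 and 186.9 CPM. The part of these markers in the values below was not tested. In bulk tissue, fewer cells of a type and less RNA per cell cannot be told apart.

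Most members that passed the low-count filter had higher fitted levels in the deletion libraries, and no member passed the test over all genes. Of 46 members, 43 passed the filter, and Gstm3, Gpx5 and Gpx6 did not. Of the 43, 36 had a fold change above 0 and 7 below, where 50.4% of all 18615 genes tested lay above 0. Their median log2 fold change was 0.49, beside 0.0045 over all genes. In 9 members all 3 deletion libraries lay above both controls, where 9.43% of all genes did so, and in 1 member all lay below, where 10.2% did. The edgeR quasi-likelihood test with Benjamini-Hochberg adjustment called 0 members and 0 genes in all (0% of genes, adjusted p of 0.985 to 1.00 for members). At an unadjusted p under 0.05 there were 7 members, all higher, where 4.92% of genes reached that level, 1.69% on the higher side and 3.23% on the lower. DESeq2 called 2 members, Gstm1 (adjusted p = 0.0218) and Gpx2 (adjusted p = 0.0311), both higher, among 166 genes (0.892% of those tested, with 0.193% called higher), and limma-voom called 0 (0%).

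**Figure D1:**
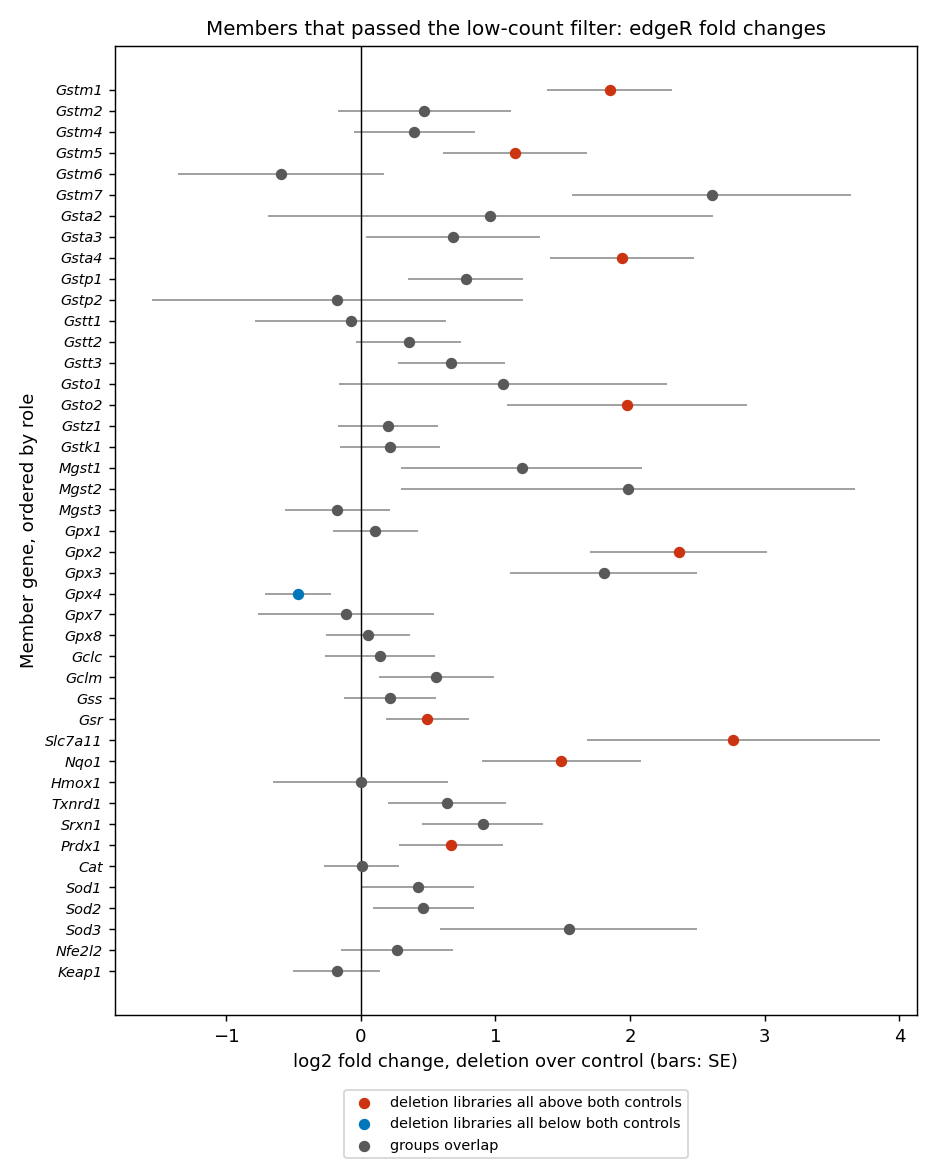
The edgeR log2 fold change of each tested member, deletion over control, with its standard error as a bar, ordered by role. Red points mark the 9 members with all deletion libraries above both controls, blue the 1 with all below, and grey the members whose groups overlapped; most points lie to the right of 0 with bars that often reach it.

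The shift was uneven between animals. Deletion replicate 2 was the highest library for 24 of the 43 members, against 26.9% of all genes, and the lowest for 1, against 31.4%. Control replicate 1 was the lowest for 21, against 25.6% of all genes, and the highest for 1, against 25.5%. Set against control replicate 1, 31, 37 and 29 members were higher in deletion replicates 1, 2 and 3. Set against control replicate 2, the numbers were 27, 34 and 22 of 43, with medians of 0.17, 0.73 and 0.052 on the log2 scale, and 22 of 43 is near an even split. The controls differed too: 33 of 43 members were higher in control replicate 2 than in replicate 1, against 51.9% of all genes.

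Leaving out 1 library changed how many members lay apart. Without control replicate 1, 13 of 44 tested members lay apart higher (20.2% of all genes) and 3 lower (23.0%). Without control replicate 2 these were 21 of 44 (27.7%) and 2 (28.4%). Without deletion replicate 1 they were 14 of 43 (15.9%) and 1 (15%), without deletion replicate 2 they were 8 of 42 (16.1%) and 2 (14.3%), and without deletion replicate 3 they were 21 of 42 (17.0%) and 2 (18.3%). Without both control replicate 1 and deletion replicate 3, 25 of 43 lay apart higher (32.8%) and 6 lower (35.0%). The members' share apart on the higher side was above that of all genes in each of these fits, at 19.0% against 16.1% without deletion replicate 2. These fits share libraries, and the list was chosen with the values known, so they are not separate checks and support nothing. On the authors' TPM, as log2(TPM + 0.1), all genes shifted up by a median of 0.91 and the members by 1.51, with 5 members apart higher (4.99% of all genes) and 0 lower (0.688%). Those 5 were Gstm2, Gstm7, Gpx2, Gpx3 and Slc7a11.

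**Figure D2:**
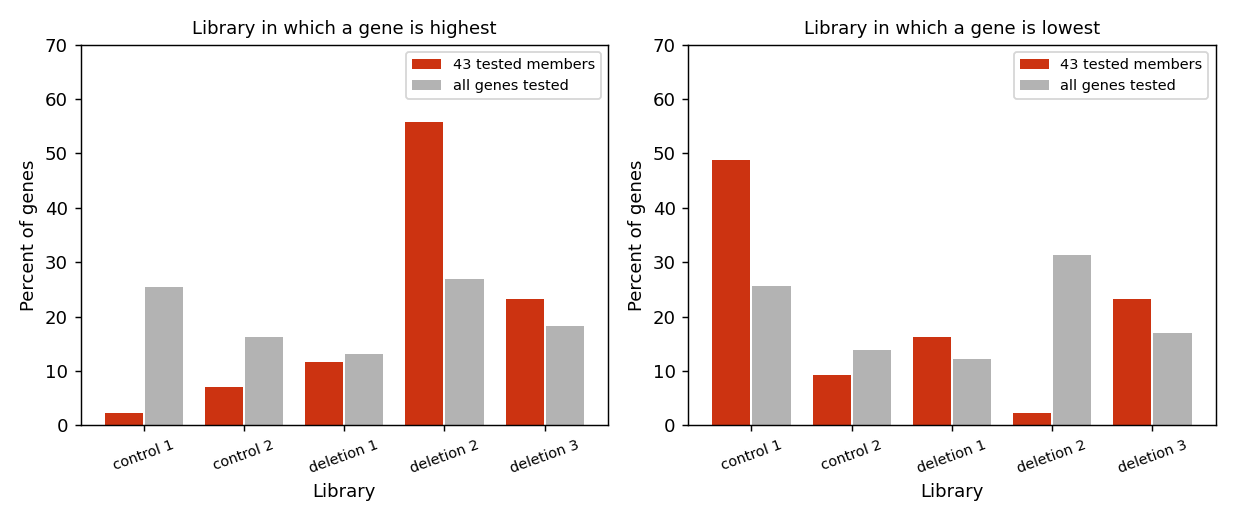
Percent of the 43 tested members (red) and of all tested genes (grey) that had their highest (left) or lowest (right) CPM in each library. Deletion replicate 2 stands out as the highest library and control replicate 1 as the lowest.

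Scaling by length, as CPM per kb of effective length, the list was dominated by few genes. The 5 members of highest mean level were Gstm1, Prdx1, Sod1, Gstm2 and Mgst1, and they held 50.6% to 59.3% of the members' summed level in each library. The sum was 1373 and 1796 CPM per kb in the controls against 2264, 3200 and 2441 in deletion libraries. Members spanned from Gstm1, with a mean of 316 CPM per kb, to Gstm3, at 0.0178.

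**Figure D3:**
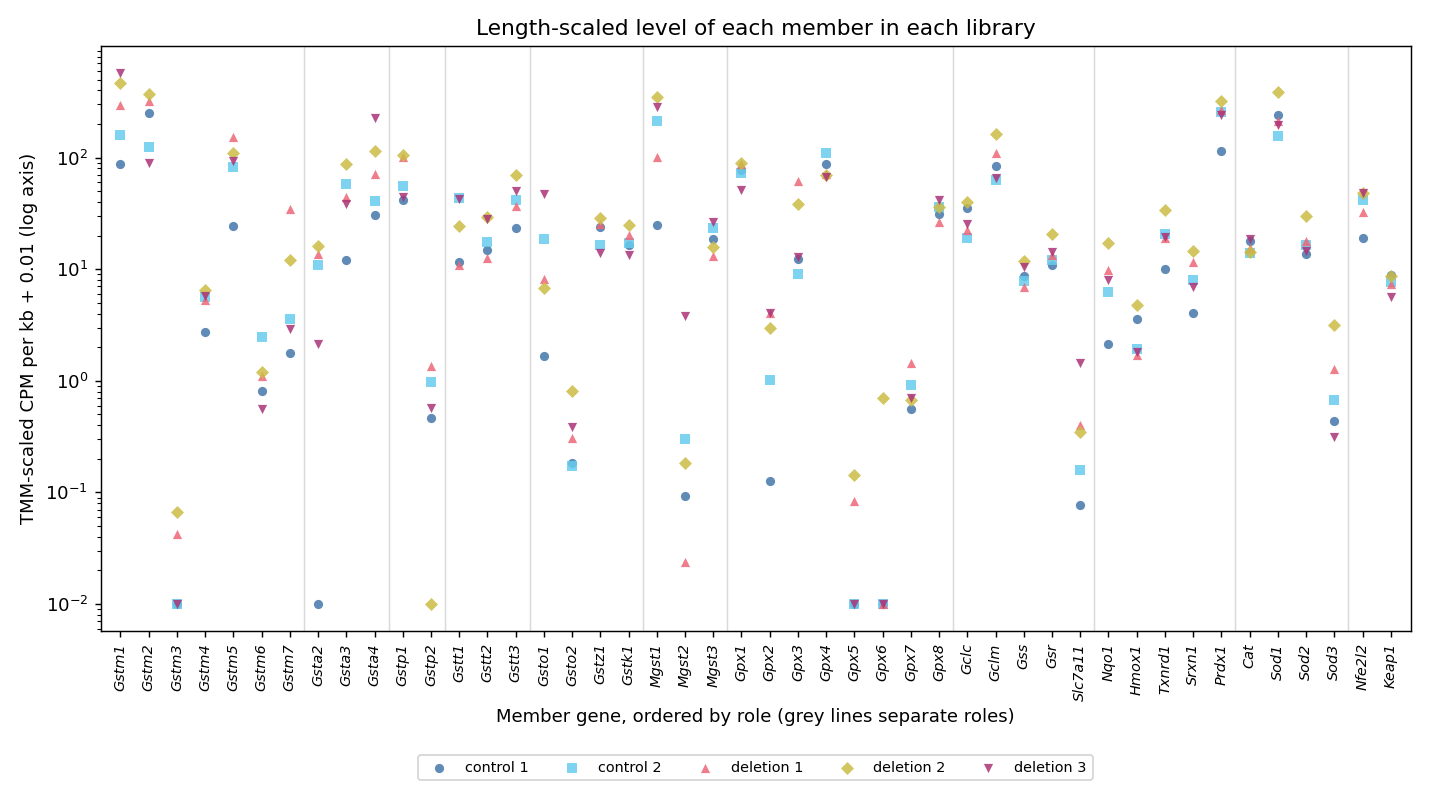
CPM per kb of effective length, plus 0.01, of all 46 members in each of the 5 libraries on a log axis, in order of role; points on the lowest line are at 0. Gstm1, Gstm2, Mgst1, Prdx1 and Sod1 are at the top, and Gstm3, Gpx5 and Gpx6 at the bottom.

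The mu-class GSTs, cytosolic enzymes coded by a tight gene cluster on chromosome 3 (7 genes from 107895821 to 108044894, GRCm38), held the largest summed level of any role. It was 368 and 376 CPM per kb in the controls against 808, 961 and 769 in deletion libraries. Their likeness could bear on counting. The same 60 coding bases of 4 of them are shown, with bases that differ from Gstm1 in capitals (5′ to 3′, GENCODE M21 transcripts).
Gstm1: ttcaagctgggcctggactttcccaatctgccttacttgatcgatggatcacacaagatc
Gstm2: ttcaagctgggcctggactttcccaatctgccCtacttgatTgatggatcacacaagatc
Gstm7: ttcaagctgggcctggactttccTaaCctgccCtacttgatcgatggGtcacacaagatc
Gstm5: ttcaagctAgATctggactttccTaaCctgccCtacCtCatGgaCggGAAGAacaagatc
Here Gstm2 differed from Gstm1 at 2 bases, Gstm7 at 4 and Gstm5 at 15. Over whole coding sequences, identity to Gstm1 was 86.3% for Gstm2, 83.3% for Gstm7, 71.7% for Gstm5 and 89.5% for Gstm3. Expected counts of Gstm1, Gstm2 and Gstm7 were whole numbers in all 5 libraries, while those of Gstm5 were not whole in 4, which is how RSEM writes reads shared with another gene. Gstm5 had 0 stretches of 50 coding bases in common with each other mu-class gene, and the gene sharing its reads was not identified. Gstm1 has 11 stretches of 50 coding bases in common with Gstm2 and 120 with Gstm3. Reads within those could fit either gene, but the counts of Gstm1, Gstm2 and Gstm3 were whole in every library, so no split of reads shows.

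Gstm1, the most abundant mu-class gene and a broad detoxifier of electrophiles, read 93.3 and 166 CPM in the controls against 307, 485 and 608 CPM in deletion libraries. The groups did not overlap, and the lowest deletion library was above the higher control. The fitted log2 change was 1.85 (SE 0.462, 95% interval 0.74 to 2.95; edgeR adjusted p = 0.985), the smallest unadjusted p of any member (0.00583). Dropping control replicate 1 gave 1.49, and dropping control replicate 2 gave 2.32. On the authors' TPM the groups overlapped, at 14.1 and 157 against 155, 285 and 1079.

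Gstm5, a more divergent mu-class gene known from testis and brain, read 18.1 and 59.3 CPM in the controls against 109, 80.1 and 68.0 in deletion libraries. The groups lay apart by a small margin between control replicate 2 and deletion replicate 3. Its log2 fold change was 1.15 (SE 0.533; edgeR adjusted p = 0.991), and ran from 0.53 with control replicate 1 left out to 2.24 with control replicate 2 left out. An annotated antisense gene overlaps the start of Gstm5, and no source used here gives the strand setting, so whether reads of the pair were kept apart is not known.

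Gstm7 read 2.05 and 4.16 CPM in the controls against 40.1, 13.4 and 3.40 in deletion libraries. Deletion replicates 1 and 2 were high, and deletion replicate 3 lay between the controls (log2 fold change 2.61, SE 1.04, edgeR adjusted p = 0.991, and 1.45 with deletion replicate 1 left out). Akr1b7 was also highest in deletion replicates 1 and 2, but control replicate 2 held 890 CPM of it with Gstm7 at 4.16. A link between the 2 genes was not tested. Gstm2 read 212 and 104 CPM against 269, 314 and 75.2, with both groups spread widely. Gstm4 and Gstm6 stayed at 0.483 to 7.83 CPM with overlapping groups, and Gstm3 had 0 to 2 counts in each library.

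Alpha-class GSTs act on lipid peroxidation products, and Gsta4 is the form most specific for 4-hydroxynonenal. Gsta4 read 23.9 and 30.8 CPM in the controls against 53.9, 88.1 and 172.8 in deletion libraries. The controls were close together and every deletion library was above them, deletion replicate 3 most of all. The fitted log2 change was 1.94 (SE 0.535, 95% interval 0.66 to 3.22; edgeR adjusted p = 0.991; DESeq2 adjusted p = 0.0668), and 1.36 without deletion replicate 3. Gsta3 read 13.0 and 55.0 CPM against 44.1, 81.7 and 38.4, and Gsta2 0 and 6.68 against 8.90, 9.37 and 1.24. For both, control replicate 1 was the lowest library and control replicate 2 lay within the deletion range, and without control replicate 1 their fold changes changed sign. The count of 0 for Gsta2 allows up to 0.128 CPM, the value of 3 counts in that library.

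The pi-class pair cannot be separated well. Gstp1 and Gstp2 are 98.1% identical over their coding sequences and share 412 stretches of 50 bases, and their counts were not whole in 5 and 4 libraries. Gstp1, the gene whose human counterpart is known to be silenced in prostate cancer, read 23.2 and 30.0 CPM in the controls against 54.0, 58.3 and 24.6 in deletion libraries. Deletion replicate 3 lay between the controls (log2 fold change 0.78, SE 0.430; edgeR adjusted p = 0.995). Gstp2 was under 1 CPM in every library.

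Theta-class Gstt3 had the highest length-scaled level of its class. It read 36.4 and 63.5 CPM in the controls against 56.5, 106 and 76.6 in deletion libraries, with deletion replicate 1 below control replicate 2 (log2 fold change 0.67, SE 0.395). That value ran from 0.33 with control replicate 1 left out to 1.125 with control replicate 2 left out. Gstt1 and Gstt2 ran from 8.94 to 35.4 CPM with overlapping groups. Of the omega, zeta and kappa classes, Gstz1, the tyrosine-breakdown enzyme maleylacetoacetate isomerase, read 35.6 and 25.3 CPM against 39.7, 42.8 and 22.7, and Gstk1 9.97 to 18.2 CPM over all libraries. Gsto1, which reduces dehydroascorbate, read 1.497 and 17.6 CPM against 7.78, 6.48 and 45.0. Deletion replicate 3 alone was high, and without it the log2 fold change of Gsto1 went from 1.05 to -0.43. Gsto2 lay apart from the controls but at 0.128 to 0.908 CPM, of which the control values are 3 counts each.

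Among the microsomal GSTs, membrane enzymes of the endoplasmic reticulum and mitochondria, Mgst1 was abundant and variable. It read 17.6 and 134 CPM in the controls against 71.5, 249 and 199.7 in deletion libraries. Control replicate 1 was the lowest, and deletion replicate 1 fell between the controls. The log2 fold change of 1.19 (SE 0.896; edgeR adjusted p = 0.995) ran from 0.37 with control replicate 1 left out to 3.30 with control replicate 2 left out. Mgst3 ran from 11.5 to 23.4 CPM with overlapping groups. Mgst2 had 136 counts in deletion replicate 3, the library in which every urothelium marker on the list was detected, and 1 to 5 counts in the others.

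The glutathione peroxidases divide by the codon at their active site, which is shown for all 8 because their family splits on it. The 27 coding bases around it are given 5′ to 3′ from GENCODE M21, with the codon in capitals: TGA is read as selenocysteine, and TGC and TGT as cysteine.
Gpx1: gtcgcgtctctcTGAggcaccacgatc
Gpx2: gtggcgtcactcTGAggaacaactacc
Gpx3: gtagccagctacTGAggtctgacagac
Gpx4: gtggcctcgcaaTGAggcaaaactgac
Gpx5: gtggctacctatTGCggtctgacaatc
Gpx6: gtggcatccttcTGTggcctgacagct
Gpx7: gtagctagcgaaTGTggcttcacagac
Gpx8: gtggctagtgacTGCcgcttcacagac
Besides Gpx1 to Gpx4, 1 member, Txnrd1, held an in-frame TGA before its stop. The selenium enzymes did not share 1 pattern: all deletion libraries lay above the controls for Gpx2 and below them for Gpx4, and the groups overlapped for Gpx1 and Gpx3.

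Gpx2, an enzyme of gut and other epithelia and a known NRF2 target, read 0.342 and 0.920 CPM in the controls against 3.61, 2.47 and 3.64 in deletion libraries. All deletion libraries were more than double the higher control, from counts of 8 and 19 against 103, 79 and 196. The fitted log2 change was 2.36 (SE 0.655, 95% interval 0.79 to 3.93; edgeR adjusted p = 0.991), and 1.81 without control replicate 1. DESeq2 called it, as given above.

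Gpx4, which reduces lipid peroxides in membranes and holds back ferroptosis, was the 1 member whose deletion libraries all lay below the controls. It read 48.8 and 53.0 CPM in the controls against 37.2, 37.4 and 36.0 in deletion libraries, with little spread in either group. The fitted log2 change was -0.47 (SE 0.245, 95% interval -1.05 to 0.12; edgeR adjusted p = 0.995), and it stayed from -0.52 to -0.41 in each fit that left out 1 library. Its counts were not whole in any library, as RSEM gives where reads are shared between loci.

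Gpx3, the secreted peroxidase of plasma and epididymis, read 15.9 and 10.6 CPM against 78.0, 46.6 and 14.5. Deletion replicates 1 and 2 were high and deletion replicate 3 lay between the controls, as in Gstm7. Gpx1, the general cytosolic form, was at 42.01 and 42.6 CPM against 47.8, 56.4 and 32.7, and Gpx8, of the endoplasmic reticulum, at 25.1 and 28.9 against 21.1, 29.2 and 34.0, both overlapping. Gpx7 was under 1 CPM throughout. Gpx5, an enzyme of the epididymal head, had 3 and 6 counts in deletion replicates 1 and 2 and 0 in the rest. Of 14 epididymis markers, 13 likewise stayed under 1 CPM in every library and the exception, Crisp1, read 1.28 and 712 CPM in the controls against 1664, 1109 and 25.0 in deletion libraries. Gpx6 had 23 counts in deletion replicate 2 and 0 elsewhere.

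The members that make and recycle glutathione all had fold changes above 0 (5 of 5, against 50.4% of all genes), and 2 of 5 lay apart from the controls (9.43% of all genes). Gsr, glutathione reductase, read 27.1 and 29.4 CPM in the controls against 33.0, 51.0 and 35.2 in deletion libraries. The gap between the groups was small beside the height of deletion replicate 2 (log2 fold change 0.49, SE 0.308; edgeR adjusted p = 0.995; 0.27 with that library left out). Slc7a11, the cystine importer that supplies the rate-limiting amino acid, read 0.385 and 1.21 CPM against 1.54, 2.76 and 11.9. Deletion replicate 3 was far above the rest, and the log2 fold change of 2.77 (SE 1.09; edgeR adjusted p = 0.991) was 1.42 without it. Gclm, the modifier subunit of the first synthetic enzyme, read 130.4 and 107 CPM against 192, 238 and 96.3, with deletion replicate 3 below both controls. The catalytic subunit gene Gclc ran from 57.0 to 125 CPM and Gss, the second enzyme, from 12.4 to 20.3, both with overlapping groups.

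Of the NRF2-target redox enzymes, Nqo1 and Prdx1 lay apart, 2 of 5 against 9.43% of all genes. Nqo1, a quinone reductase often used to read NRF2 activity, read 2.87 and 8.23 CPM in the controls against 13.1, 22.8 and 10.7 in deletion libraries. Deletion replicate 3 was only slightly above control replicate 2. The fitted log2 change was 1.49 (SE 0.592, 95% interval 0.07 to 2.91; edgeR adjusted p = 0.991), and ran from 0.92 with control replicate 1 left out to 2.44 with control replicate 2 left out. Prdx1, an abundant cytosolic peroxidase that works with thioredoxin, read 132 and 257 CPM against 307, 355 and 266 (log2 fold change 0.67, SE 0.388). With control replicate 1, the lowest library, left out that value was 0.27, and with control replicate 2 left out it was 1.23. Txnrd1, thioredoxin reductase, read 28.5 and 56.0 CPM against 51.7, 94.4 and 51.6, and Srxn1, which repairs oxidised peroxiredoxins, 10.6 and 19.9 against 29.8, 37.7 and 18.2. In both, control replicate 2 lay within the deletion range. Hmox1, haem oxygenase and a classic NRF2 target, had overlapping groups at 4.83 and 2.57 CPM against 2.21, 6.48 and 2.43 (95% interval of the log2 fold change -1.56 to 1.56).

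**Figure D4:**
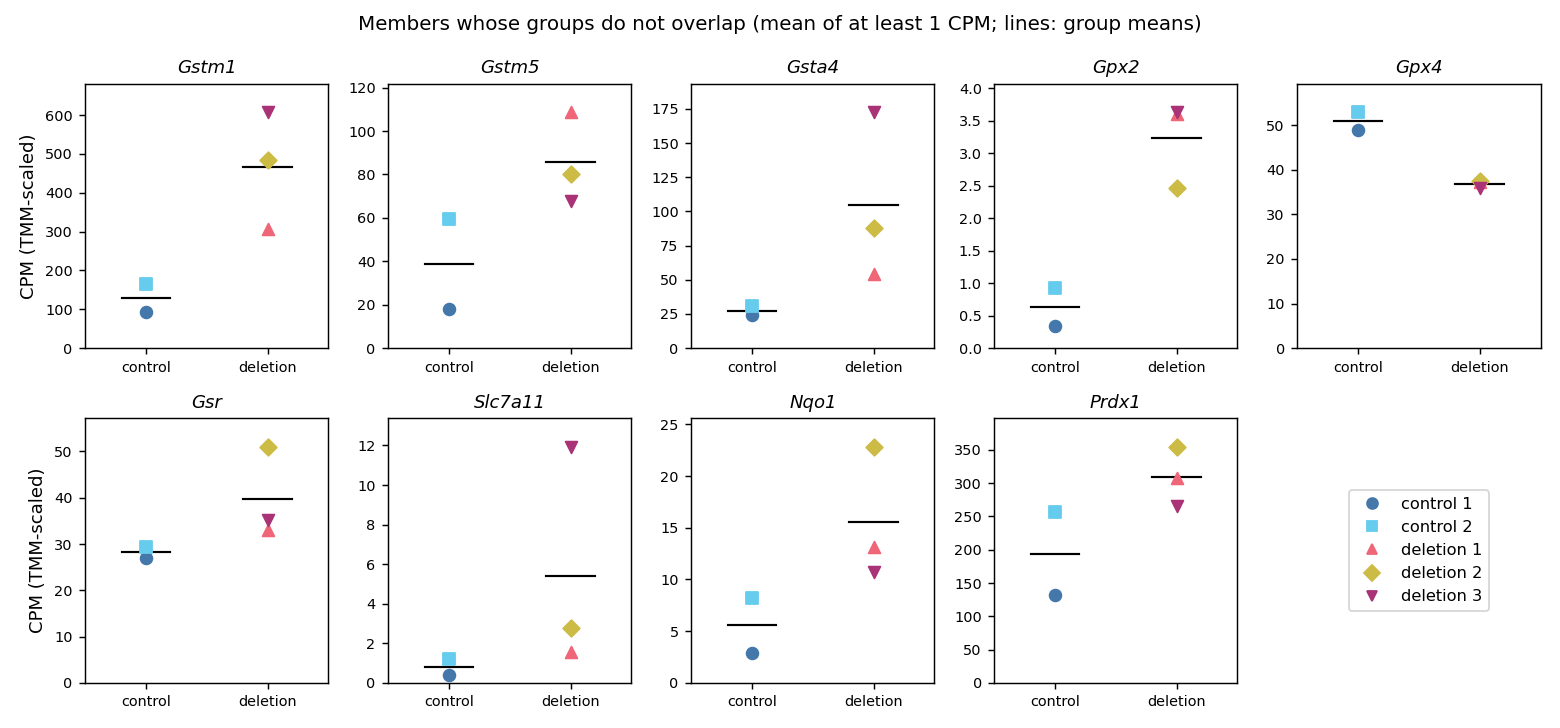
CPM in each library for the 9 members with a mean of at least 1 CPM whose groups did not overlap; axes start at 0 and black lines are group means (2 controls, 3 deletion libraries). Gpx4 is lower and the other 8 are higher in the deletion libraries, with narrow gaps for Gstm5, Gsr, Slc7a11, Nqo1 and Prdx1.

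The groups overlapped for both regulators. Nfe2l2 read 41.97 and 90.2 CPM in the controls against 69.1, 64.7 and 104.7 in deletion libraries. Its log2 fold change of 0.27 (SE 0.416, 95% interval -0.73 to 1.26) became -0.18 without control replicate 1. Keap1 read 26.8 and 20.7 CPM against 21.4, 25.4 and 16.1 (log2 fold change -0.18, SE 0.323), and 0.020 without control replicate 1. Intervals of this width do not show that their levels were equal, and NRF2 is controlled mainly through its protein, which was not measured.

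The superoxide and peroxide enzymes had overlapping groups throughout. Sod1, the cytosolic copper-zinc enzyme and the most abundant of them, read 107 and 65.8 CPM against 90.3, 171 and 85.9. Sod2, the mitochondrial manganese form, ran from 49.5 to 108 CPM, highest in deletion replicate 2. Cat, catalase, stayed between 33.4 and 44.1 CPM in all 5 libraries (log2 fold change 0.0074, SE 0.280, 95% interval -0.66 to 0.68). Sod3, the extracellular form, read 1.497 and 2.32 CPM against 4.45, 11.2 and 1.08, again high in deletion replicates 1 and 2 and not in 3.

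The antioxidant response element core, TGACNNNGC on either strand, was looked for from 250 bases before to 50 after the start of each gene in the RefSeq promoter table (GRCm38.p6). Of 40 members in that table, 10 held it (25.0%), against 13.99% of all 27025 genes there, and 18.5% of the 54 member windows held it, against 12.4% of all 32851. The 9 sites that lie before the RefSeq start are shown 5′ to 3′ on the gene's strand with the match in capitals.
Gsta3: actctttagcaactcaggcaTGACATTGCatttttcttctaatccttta
Txnrd1: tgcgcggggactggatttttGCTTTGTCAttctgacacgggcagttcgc
Prdx1: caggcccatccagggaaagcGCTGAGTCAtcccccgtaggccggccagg
Gstm5: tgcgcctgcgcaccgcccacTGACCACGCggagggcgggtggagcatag
Gstm7: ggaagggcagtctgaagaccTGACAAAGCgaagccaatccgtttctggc
Gclm: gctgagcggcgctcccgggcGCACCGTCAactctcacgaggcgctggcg
Mgst1: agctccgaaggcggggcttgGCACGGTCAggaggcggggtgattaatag
Nfe2l2: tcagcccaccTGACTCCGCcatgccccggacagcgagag
Sod1: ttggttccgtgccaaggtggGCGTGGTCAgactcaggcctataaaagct
These stretches lie at chr4:116685446-116685494 for Prdx1, chr3:107895792-107895840 for Gstm5, chr3:107931715-107931763 for Gstm7 on the minus strand, and chr3:122245403-122245451 for Gclm. Those of Mgst1, Nfe2l2 and Sod1 lie at chr6:138140451-138140499, at chr2:75704875-75704913 on the minus strand, and at chr16:90220686-90220734, and those of Gsta3 and Txnrd1 at chr1:21240444-21240492 and chr10:82859094-82859142. The Prdx1 match also holds TGANTCA, the core bound by AP-1 factors. The match of Srxn1 lies after its RefSeq start. The stretches of Txnrd1, Gstm7 and Mgst1 lie inside those genes as annotated in GENCODE M21. Gstm1, Gpx2, Nqo1 and Slc7a11 had no match in these windows, which says only that these letters are not there. A match is a description of sequence and not a bound site.

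Genes of the wider pathway outside the 46 members had a smaller median shift, a difference that was not tested. Of 67 listed, 65 were tested, 38 were higher (50.4% of all genes were) and 27 lower, 6 lay apart higher and 5 lower, near the 9.43% and 10.2% of all genes, 0 passed the edgeR test, and the median log2 fold change was 0.17. Of the 10 partners and regulators of NRF2, 9 were higher, against 11 of 15 other oxidant defence and selenoprotein genes, 9 of 14 other peroxiredoxin, thioredoxin and glutaredoxin genes, 3 of 8 NADPH-supplying genes, 4 of 11 tested genes of glutathione breakdown and export, and 2 of 7 tested NADPH oxidase genes. Bach2, a repressor related to the NRF2 competitor BACH1, had 3.75 ± 0.520 CPM (SD, n = 2) in the controls against 10.2 ± 2.47 (SD, n = 3) in deletion libraries. Ggt5, which cleaves glutathione conjugates outside cells, had 1.44 ± 0.833 CPM in the controls against 14.4 ± 11.9 in deletion libraries, high in deletion replicates 1 and 2. On the lower side, Ggct, an enzyme of glutathione breakdown, had 19.9 ± 3.57 CPM in the controls against 10.9 ± 2.82 in deletion libraries. Chac1, a stress-induced glutathione-degrading enzyme, had 11.6 ± 16.0 against 1.88 ± 1.79 CPM. For Chac1, control replicate 1 alone was high, at 23.0 CPM. Control replicate 2, at 0.290 CPM, lay below all deletion libraries, at 3.89, 1.32 and 0.445. The edgeR adjusted p of these 4 genes was 0.991 to 0.995.

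Markers of other cell content also differed between libraries. Macrophage markers summed to 78.6 and 120 CPM in the controls against 52.7, 54.6 and 58.5 in deletion libraries. Of their 9 tested markers, 9 were lower and 7 lay apart lower, and Marco was at 0 in 4 libraries. Mitosis genes summed to 244 and 48.2 against 8.55, 11.7 and 6.72 CPM, with 10 of 10 lower and 10 apart lower. Of all genes tested, 50.4% were higher and 10.2% lay apart lower. Adipocyte markers summed to 0.856 and 11.1 against 2.73, 45.5 and 39.3 CPM and red blood cell markers to 18.4 and 10.7 against 10.7, 1.41 and 4.42. Their part in the members' values was not tested.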

How the data were processed

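Per the labels' protocols, TruSeq Stranded Total RNA libraries were made. GRCm38, RSEM 1.3.0, STAR 2.5.3a and bcl2fastq 2.20.422 are listed in the submitters' processing notes; no source used here gives the annotation or strand setting. Per the file headers, the authors deposited RSEM expected counts, not normalized, and TPM and FPKM, which are relative to length and to all genes of a library; of these the FPKM was not analysed. Of 51912 gene IDs, 51633 had a symbol; positions and coding sequences (APPRIS principal transcripts) came from GENCODE M21 for GRCm38.

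Expected counts were rounded, and 1 model of all 5 libraries was fitted in R 4.3.3 with limma 3.58.1 and edgeR 4.0.16: filterByExpr, TMM, robust glmQLFit, glmQLFTest, Benjamini-Hochberg under 0.05 over all genes. SE is the fold change over the root of F. The fit was tested on simulated data. Alternatives were other scalings, no filter, DESeq2 1.42.0, limma-voom, a replicate block and leaving out libraries. No protein table was used here, so identity between members was computed on coding sequences.

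The members, gene lists and rules were chosen with earlier results of these data known. Values by library were given for members with a mean of at least 1 CPM and groups that did not overlap, or with a highest library of at least 10 CPM and 10 times the lowest, for the member of highest length-scaled level in each role, for Nfe2l2 and Keap1, and for further members as examples; of the pathway lists, for the 2 higher and 2 lower genes with the lowest p and at least 1 CPM. The series' design text calls the libraries of a group biological replicates. A count of 3 stood for 0.0557 to 0.145 CPM; such floors cover counting error only.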

Additional observations from a re-analysis of the deposited data

How the results depend on the processing

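Leaving out 1 library at a time, the number of genes called ran from 0 to 48, of members called from 0 to 0, the members' median log2 fold change from 0.29 (without deletion replicate 2) to 0.99 (without control replicate 2), members apart on the higher side from 8 to 21 and on the lower side from 1 to 3. Fits that leave 1 control assume that it varies like the deletion libraries. Without control replicate 2, 48 genes were called and 21 members lay apart higher (27.7% of all genes); 21 also lay apart higher without deletion replicate 3 (17.0% of all genes), where 2 genes were called, 14 without deletion replicate 1 (15.9%) and 13 without control replicate 1 (20.2%). Without control replicate 1 and deletion replicate 3 together, chosen after seeing the data, 85 genes and 0 members were called, and 25 members were apart higher (32.8% of all genes) and 6 lower (35.0%). DESeq2 called 166 genes and 2 members. Gstm1 and Gpx2 passed in DESeq2 alone (adjusted p up to 1.00 in the other fits).

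Sign changed for 4 named members; the cause was not tested. Gsto1 was -0.43 without deletion replicate 3 and -1.30 without it and control replicate 1, with 3.71 without control replicate 2. Gstz1 was -0.024 without control replicate 2, against 0.70 without deletion replicate 3 and control replicate 1. Nfe2l2 was -0.18 without control replicate 1, -0.43 without it and deletion replicate 3, and 0.92 without control replicate 2; Keap1 was 0.020, 0.17 and -0.36 in the same fits. The other 16 of 20 named members kept their sign in every fit, and 25 of 43 tested members did. On the authors' TPM, in which 7SL RNA held 23.2% to 69.7% of each library, the members stood 0.59 above the shift of all genes.

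Whether replicate numbers shared by the groups pair the libraries was not settled. Deviations of same-numbered libraries from their group means correlated at 0.18 and -0.14 across genes. With 2 controls, the deviations of 1 control mirror those of the other, so these correlations are not separate checks and cannot decide it. With the number as a replicate block, 8 genes and 0 members were called and the members' median was 0.57.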
